A study of Mus musculus with 10 samples.

Results

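The genes described here are 8 mouse genes for transcription factors and chromatin cofactors of olfactory receptor enhancers: Lhx2, Ldb1, Ebf1, Ebf2, Ebf3, Ebf4, Emx2 and Bptf. They were chosen by name, with earlier results of these data known, and are 8 of the 24421 genes in the raw count table. The question was how strongly each is transcribed in the whole main olfactory epithelium (MOE), the sensory tissue of the nose, and whether its level differs between mice with and without the TAAR enhancers. RNA-seq libraries came from mice labelled C57BL/6 at postnatal day 14 in 3 genotypes: 3 wild type libraries (WT), 3 libraries heterozygous for TAAR enhancer 1and2 double knockout (+/-, called het) and 4 homozygous libraries (-/-, called homo). TAAR enhancer 1 and TAAR enhancer 2 are DNA elements in the Taar gene cluster, which codes for trace amine-associated receptors, and the double knockout was made with CRISPR-Cas9 in zygotes and kept as a single line. All cells of the mice carry their genotype, no transgene or Cre was involved, and the study used both sexes without the labels giving the sex of a library. The study describes the mice as littermates, but the labels name no animal or litter for a library, and the p-values below measure the spread between these libraries.

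Olfactory receptor genes are switched on from distant enhancers that carry joint binding sites for the LIM homeodomain factor LHX2 and for factors of the EBF family. LHX2 recruits the adaptor LDB1, which holds enhancers together across chromosomes, and the resulting hub sits next to the receptor gene that the neuron transcribes. EMX2 is a homeodomain factor that binds receptor gene promoters, and BPTF is the large subunit of the nucleosome remodelling factor NURF, which reads histone marks.

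The libraries held between 21423861 and 27712948 counts. The mature neuron marker Omp was measured at 3572 to 4861 CPM (the count scaled by the library's total) and the supporting cell marker Cyp2g1 at 2462 to 3075 CPM, so the defining cells of the tissue were present. As a check of the genotype labels, 12 of 14 olfactory Taar receptor genes had enough counts to be tested, and each of the 12 fell in homo relative to WT by edgeR's quasi-likelihood test with Benjamini-Hochberg adjustment over 17197 genes. Taar6, for example, was measured at 4.82 ± 0.216 CPM in WT (SD, n = 3), 4.18 ± 0.460 in het (n = 3) and 0.00902 ± 0.0180 in homo (n = 4), with an adjusted p of 1.68e-08 between homo and WT.

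All 8 genes were well measured, with 1719 (Emx2) to 18952 (Ebf2) counts in a library. Their levels varied over the 10 libraries by a coefficient of variation of 3.98% (Ebf1) to 13.9% (Emx2), against 0.804% to 2.17% that counting error alone would give. Counting error was therefore a small part of the spread, and depth did not limit these comparisons.

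Per length of transcript, the most abundant members were EBF genes. Ebf4 was measured at 95.7 CPM per kb of exon union in the mean of the 10 libraries, followed by Ebf2 at 93.1, Lhx2 at 71.5, Ebf3 at 60.5, Ldb1 at 50.8, Ebf1 at 34.4, Emx2 at 30.1 and Bptf at 8.20. The first 7 of these levels lay between the 90.1st and the 98.0th percentile of the 16546 genes with enough counts to be tested and an annotated length. Bptf, whose transcript is the longest, lay at the 62.1st percentile. The ranges over libraries overlapped for each neighbouring pair in this order except Ldb1 and Ebf1, and Emx2 and Bptf. Ebf4 exceeded Ebf2 in 7 of 10 libraries, so these genes were not separated, and in homo the mean of Ebf2 (94.8 ± 2.84 CPM per kb, n = 4) stood above that of Ebf4 (92.5 ± 13.7). The first 4 places depended on the length used: with the longest transcript in place of the exon union the order began with Ebf2, Ebf3, Lhx2 and Ebf4, while the order of Ldb1, Ebf1, Emx2 and Bptf stayed as given.

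**Figure D1:**
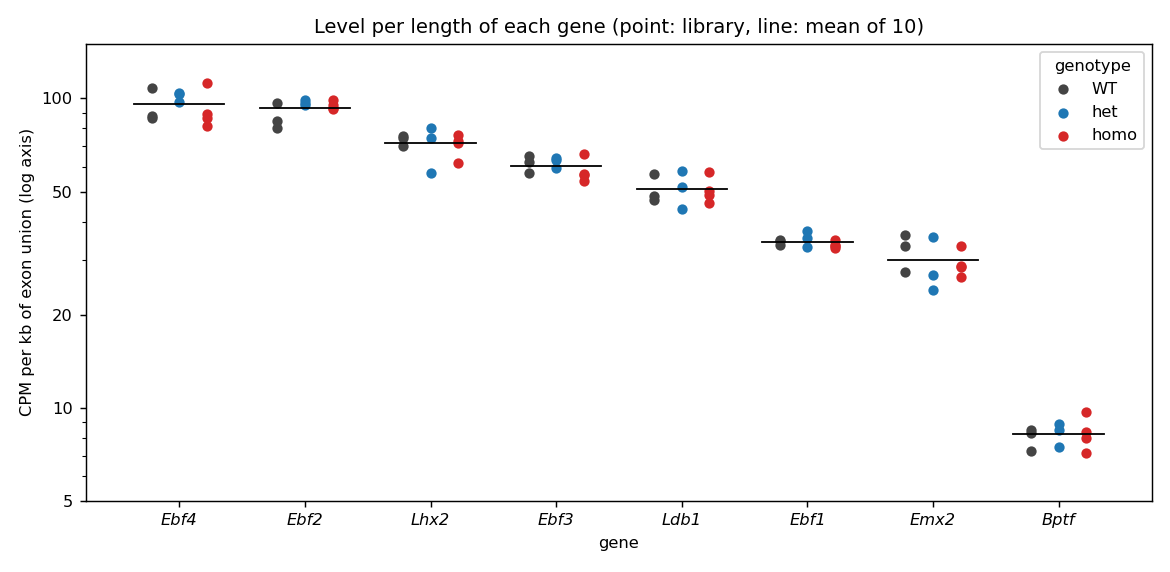
Level of each gene per length of transcript (vertical log axis, CPM per kb of exon union) in 3 WT, 3 het and 4 homo libraries, each point a library and each line the mean of 10. The EBF genes span from 34.4 (Ebf1) to 95.7 (Ebf4), and Bptf stands apart at 8.20.

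LHX2 is the DNA-binding LIM homeodomain factor of the enhancer hub. Lhx2 lies at chr2:38339281-38369733 (mm10, plus strand, GENCODE M21) and is overlapped on the opposite strand by Gm13584 and Gm27197. In WT it was measured at 331.7, 309.4 and 327.8 CPM, in het at 328.0, 252.1 and 352.9 CPM and in homo at 314.4, 272.0, 319.0 and 335.2 CPM. The lowest value was that of the second het library and the highest that of the third, so the het group enclosed all other values. Homo differed from WT by -0.05 on the log2 scale (SE 0.11, adjusted p = 1 by edgeR), and het from WT by -0.06 (SE 0.12, adjusted p = 0.9996). Between homo and het the log2 difference was 0.0012 (SE 0.11, adjusted p = 0.9993). The 95% interval for homo ran from 82.2% to 112.8% of the WT level.

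LDB1 has no DNA-binding domain of its own and joins LIM factors at distant sites by dimerizing. Ldb1 lies at chr19:46031570-46045214 (minus strand) and is overlapped by Pprc1 on the opposite strand. Its WT libraries held 222.2, 215.8 and 262.7 CPM, its het libraries 237.6, 201.8 and 268.1 CPM and its homo libraries 223.6, 211.1, 230.7 and 267.3 CPM. Each genotype thus had 1 library at 262.7 CPM or above and the others between 201.8 and 237.6, and the groups overlapped throughout. The group means were 233.5 ± 25.4, 235.9 ± 33.2 and 233.2 ± 24.2 CPM. The log2 difference between homo and WT was 0.0018 (SE 0.11, adjusted p = 1 by edgeR), with an interval of 85.7% to 117.0% of the WT level. Het stood at 100.9% of WT (85.5% to 119.2%).

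The letters to which these factors bind were looked for in the members' own promoters, to show whether the genes carry the motifs of the hub they form. RefSeq windows of the 250 bases before a start (GRCm38.p6) were held for 7 of the 8 genes, 11 windows in all, and none for Ebf2. The LIM homeodomain cores TAATTA and TAATGA, read on both strands, were in none of them, and are in 4.84% and 8.59% of all 32851 windows. The EBF core CCCNNGGG, which reads the same on both strands, was in windows of Ebf3 and Ldb1, 2 of 7 genes and 2 of 11 windows, and is in 11.82% of all windows and in a window of 13.4% of all genes. TAATTA and TAATGA share their first 4 letters, and neither shares a stretch with CCCNNGGG. A match is a description of letters and not evidence of a bound site. The 2 windows with a match and the first window of Lhx2, which has none, are shown 5′ to 3′ on the gene's strand, with CCCNNGGG in capitals. They lie at chr7:137314446-137314695 (Ebf3, minus strand), chr19:46039622-46039871 (Ldb1, a start within the gene, minus strand) and chr2:38339031-38339280 (Lhx2, plus strand).
Ebf3: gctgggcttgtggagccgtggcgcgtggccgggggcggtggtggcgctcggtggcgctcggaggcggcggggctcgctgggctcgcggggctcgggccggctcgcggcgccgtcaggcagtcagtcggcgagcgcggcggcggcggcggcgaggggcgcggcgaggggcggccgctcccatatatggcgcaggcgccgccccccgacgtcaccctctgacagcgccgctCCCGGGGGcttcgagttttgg
Ldb1: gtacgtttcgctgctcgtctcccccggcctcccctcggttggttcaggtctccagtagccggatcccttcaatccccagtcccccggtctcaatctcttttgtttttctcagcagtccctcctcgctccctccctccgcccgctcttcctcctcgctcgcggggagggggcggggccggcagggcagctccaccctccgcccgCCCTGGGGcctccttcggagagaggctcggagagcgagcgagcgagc
Lhx2: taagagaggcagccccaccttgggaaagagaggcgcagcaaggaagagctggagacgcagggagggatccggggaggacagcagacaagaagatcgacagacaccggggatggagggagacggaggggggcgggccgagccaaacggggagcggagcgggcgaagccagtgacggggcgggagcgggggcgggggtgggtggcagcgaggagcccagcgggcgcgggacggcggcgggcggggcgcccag
The match begins 21 bases before the start of Ebf3 and 47 bases before this start of Ldb1. All 3 windows are rich in G and C (80.0%, 68.4% and 72.8%), and none overlaps an annotated exon of its gene. Among the windows not shown, the second of Lhx2, the first of Ebf1 and the only one of Emx2 lie wholly within annotated exons. For these the letters searched are transcribed sequence of another annotated start.

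EBF1 to EBF4 form a family of helix-loop-helix zinc-finger factors, named for their role in olfactory neurons and early B cells. Summed over the family the level was 1811 ± 126.1 CPM in WT, 1918 ± 34.5 in het and 1824 ± 120.0 in homo. The family total therefore differed between genotypes by less than the spread within WT or homo.

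Ebf1 (chr11:44617317-45008091, plus strand) is the member that B cells also use. It was measured at 326.9, 337.8 and 340.1 CPM in WT, at 344.4, 323.7 and 364.8 CPM in het and at 320.4, 325.8, 326.6 and 340.7 CPM in homo. It was the steadiest of the 8 genes, and its intervals were the narrowest, with homo at 98.4% of WT (87.4% to 110.8%, edgeR adjusted p = 1). Summed levels of 8 B cell markers were low, at 10.9 to 19.9 CPM, and Cd79a was measured at 0.505 to 1.99 CPM.

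Ebf2 (chr14:67233292-67430918, plus strand) had the highest count share of the family. Its values were 555.8, 585.3 and 668.8 CPM in WT, 683.3, 668.0 and 660.4 CPM in het and 646.8, 658.1, 638.8 and 683.9 CPM in homo. WT replicates 1 and 2 lay below all 7 other-genotype libraries, but WT replicate 3 lay within them. It had the smallest unadjusted p of the 8 genes against WT, 0.127 in het (log2 difference 0.15, SE 0.09) and 0.168 in homo (0.13, SE 0.09), and neither passed the test (edgeR adjusted p = 0.9996 and 1). The comparisons share the WT libraries. Without WT replicate 3 the log2 differences were 0.23 for het (unadjusted p = 0.0472, edgeR adjusted p = 1) and 0.20 for homo, and without WT replicate 1 they were 0.10 and 0.07.

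Ebf3 (chr7:137193673-137314445, minus strand) gave 577.0, 530.2 and 599.3 CPM in WT and 581.8, 549.5 and 590.1 CPM in het. In homo it gave 525.3, 520.2, 500.6 and 610.7 CPM. The first 3 homo libraries were below all WT and het libraries and homo replicate 4 was above all of them, so the groups overlapped. Homo stood at 95.1% of WT (83.2% to 108.6%) and at 94.3% of het (82.5% to 107.7%).

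Ebf4 (chr2:130295169-130370481, plus strand) is the most divergent member of the family. Its values were 280.4, 283.4 and 348.4 CPM in WT, 333.5, 337.3 and 316.2 CPM in het and 280.0, 289.0, 263.7 and 364.0 CPM in homo. As for Ebf3, homo replicate 4 was the highest of all 10 libraries and homo replicate 3 the lowest. The difference between homo and het had the smallest p of the 8 genes in that contrast (log2 difference -0.13, SE 0.11, unadjusted p = 0.236, edgeR adjusted p = 0.9993). Without homo replicate 3 it was -0.08, and without homo replicate 4 it was -0.23 (unadjusted p = 0.0425, edgeR adjusted p = 0.9994). With the replicate number as a block, homo replicate 4 is alone in its block and does not bear on this contrast. That fit is thus not a separate result, and it too gave -0.23 (unadjusted p = 0.0325, edgeR adjusted p = 0.9987). Ebf4 has no overlapping annotated gene, whereas Ebf1, Ebf2 and Ebf3 each overlap genes on the opposite strand.

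Per length, Ebf4 made up 33.7% ± 1.61 of the summed EBF level over the 10 libraries, Ebf2 32.9% ± 1.55, Ebf3 21.4% ± 0.971 and Ebf1 12.1% ± 0.688 (SD). The share of Ebf2 was 31.4% ± 0.792 in WT, 32.7% ± 0.282 in het and 34.0% ± 1.65 in homo. Every het library (32.4% to 32.9%) was above every WT library in this share, while homo replicate 4 (31.6%) fell within the WT range of 30.5% to 32.0%. Between het and WT, 5.22% of single genes also had CPM values that did not overlap. By counts with no length correction the shares of Ebf1 to Ebf4 were 18.2%, 34.9%, 30.2% and 16.7%, so the place of Ebf4 depends on the scale.

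EMX2 is needed for a full repertoire of odorant receptors. Emx2 (chr19:59458372-59465357, plus strand) overlaps the antisense gene Emx2os. It was measured at 99.99, 82.61 and 108.3 CPM in WT, at 80.85, 72.29 and 107.0 CPM in het and at 85.65, 79.25, 86.45 and 100.1 CPM in homo. Its mean was lower in both mutant genotypes (86.7 ± 18.1 in het and 87.9 ± 8.79 in homo against 97.0 ± 13.1 in WT), and the groups overlapped. Homo stood at 90.9% of WT (76.0% to 108.7%, unadjusted p = 0.276, edgeR adjusted p = 1) and het at 89.4% (73.8% to 108.2%, unadjusted p = 0.232, adjusted p = 0.9996). On the log2 scale these were the widest intervals of the 8 genes relative to WT. The size of the het difference depended on single libraries, with a log2 value of -0.16 over all of them. It was -0.33 without het replicate 3 (unadjusted p = 0.0143, edgeR adjusted p = 0.808) and -0.05 without het replicate 2. Over the alternatives of this contrast the smallest adjusted p of the 8 genes was between 0.808 and 1.

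BPTF binds methylated histone H3 tails and ties NURF to them. Bptf (chr11:107033081-107132127, minus strand, no overlapping gene) gave 119.7, 116.3 and 102.1 CPM in WT, 124.8, 119.3 and 104.7 CPM in het and 112.3, 136.6, 100.8 and 117.7 CPM in homo. The highest and the lowest library were both homo. Homo stood at 104.1% of WT (88.7% to 122.0%) and het at 103.1% (87.0% to 122.3%).

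**Figure D2:**
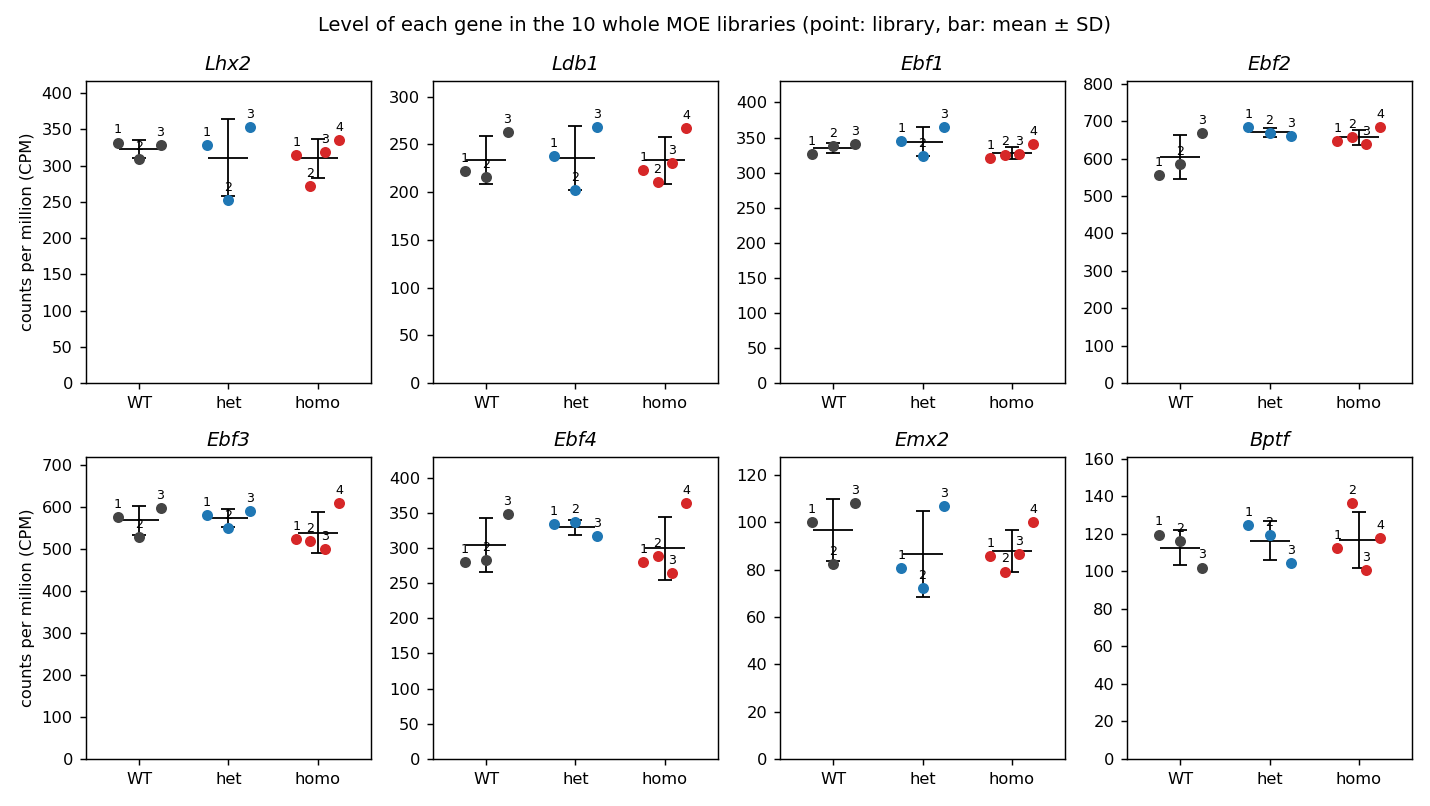
Level of each of the 8 genes (vertical axis from 0, CPM) in the 3 WT, 3 het and 4 homo libraries, numbered by replicate, with bars for the mean ± SD. The genotypes overlap for each gene, and het replicate 2 is the lowest library for Lhx2, Ldb1 and Emx2.

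Across the 8 genes, none passed an adjusted p of 0.05 in any of the 3 contrasts, none had an unadjusted p under 0.05 in the fit by genotype alone, and for none did the genotypes fail to overlap. DESeq2 and limma-voom also called 0 of the 8. For homo against WT, 12 of 17197 genes were called (0.0698%), 2.41% had an unadjusted p under 0.05 and 3.55% had groups that did not overlap. For het against WT, edgeR called 0 genes (0%, also 0 by DESeq2 and limma-voom), 1.92% had an unadjusted p under 0.05 and 5.22% did not overlap. For homo against het, 13 genes were called (0.0756%), with 2.48% at an unadjusted p under 0.05 and 3.93% not overlapping. With the replicate number as a block the counts of called genes were 19 between homo and WT and 24 between homo and het, and still 0 of the 8. In that fit homo replicate 4 is alone in its block and does not bear on the homo contrasts. At these shares a list of 8 genes with 0 calls is near the background.

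In size, the log2 differences of the 8 genes ran from -0.14 (Emx2) to 0.13 (Ebf2) between homo and WT, with 3 higher and 5 lower and a median of -0.02. Between het and WT they ran from -0.16 (Emx2) to 0.15 (Ebf2), with 6 higher and 2 lower and a median of 0.03. Between homo and het they ran from -0.13 (Ebf4) to 0.02 (Emx2), with 3 higher and 5 lower and a median of -0.02. The medians over all genes tested were 0.00011, -0.00089 and -0.00097. Standard errors were between 0.08 and 0.13, and over the 3 contrasts the 95% intervals ran from 73.8% to 128.5% of the level in the comparison genotype. Every one of these intervals included 100%. In whole tissue, fewer cells of a type and less RNA per cell cannot be told apart.

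**Figure D3:**
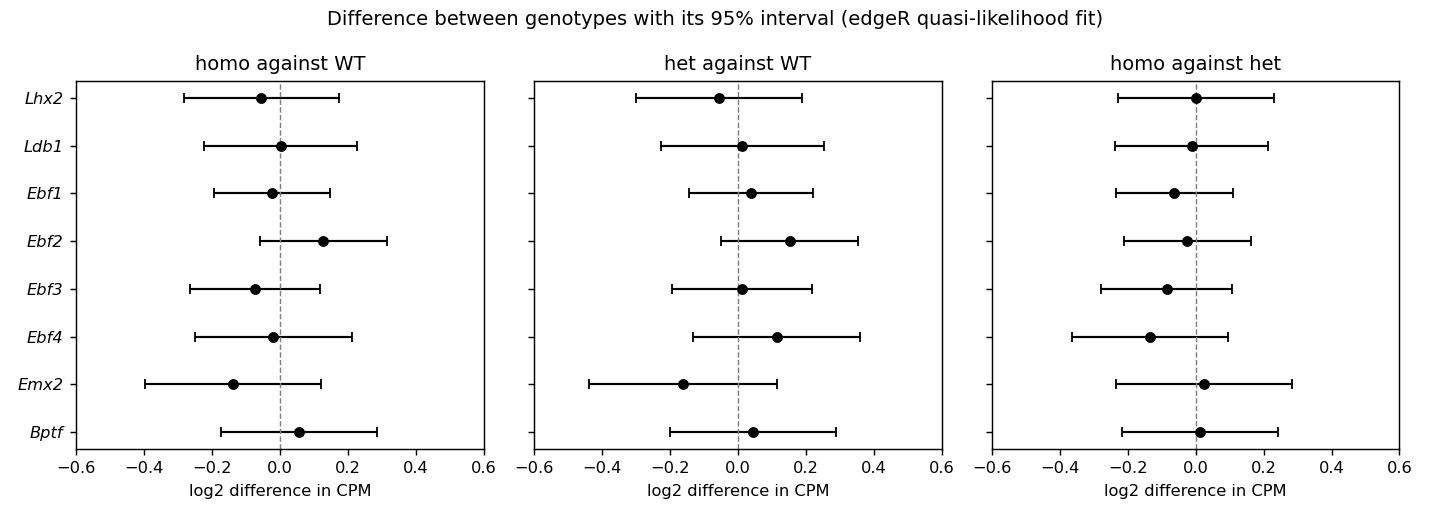
Log2 difference in CPM between genotypes (horizontal axis) for the 8 genes in 3 contrasts, with 95% intervals from the edgeR fit of all 10 libraries. Each interval includes 0, and the point estimates lie between -0.16 and 0.15.

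Partners of the 8 genes were followed in 7 lists of 75 genes, 65 of which were tested. None of the 65 was called in any contrast, and 2 (Insm1 and Sox2, homo against WT) and 1 (Zfp423, het against WT) had an unadjusted p under 0.05. Over all 17197 genes 2.41% and 1.92% had one in these contrasts, so these counts are near the background. The list medians over these 65 genes were -0.02 in homo and -0.0068 in het relative to WT, and 0.0010 in homo relative to het.

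Among partners of LDB1, all 9 were tested and 0 were called in each contrast. The SSBP proteins protect LDB1 from degradation, and the 3 genes Ssbp2, Ssbp3 and Ssbp4 were measured at 22.7, 19.3 and 12.4 CPM per kb. LMO proteins compete with LIM homeodomain factors for LDB1, and here Lmo4 led with 26.6 CPM per kb, followed by Lmo2 with 16.4, Lmo1 with 5.82 and Lmo3 with 0.0772. The paralog Ldb2 was measured at 3.48 CPM per kb, against 50.8 for Ldb1. The log2 differences of this list between homo and WT ran from -0.10 (Lmo2) to 0.09 (Rlim, a ubiquitin ligase that acts on LDB1).

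Lhx2 was by far the main LIM homeodomain gene of the tissue. Of 11 other LIM homeodomain genes, 3 had enough counts to be tested, Isl1 at 3.73 CPM per kb, Isl2 at 0.349 and Lhx6 at 0.162, and no library held more than 10 counts of any of the other 8. None of the 3 was called. Isl1 was measured at 13.4 ± 2.03 CPM in WT and 15.9 ± 1.55 in homo (log2 difference 0.26, SE 0.13, unadjusted p = 0.0699, edgeR adjusted p = 1).

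The zinc-finger proteins ZFP423 and ZFP521 bind EBF factors and restrain them, and 0 of the 2 genes was called. Zfp423 was measured at 29.7 ± 0.677 CPM in WT, 23.7 ± 1.89 in het and 27.0 ± 3.33 in homo. Its difference between het and WT was -0.33 on the log2 scale (SE 0.12, unadjusted p = 0.0117), which did not hold after adjustment (edgeR adjusted p = 0.9996).

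Of 9 further subunits of NURF and related ISWI remodellers, 9 were tested and 0 were called. Smarca5, the ATPase of most ISWI complexes, was measured at 37.0 CPM per kb and Smarca1, the NURF ATPase, at 0.901, while Bptf itself stood at 8.20 and the histone chaperone Rbbp7 at 45.9. The log2 differences between homo and WT ran from -0.11 (Smarca1) to 0.10 (Baz2a).

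Among 10 other homeobox genes of the olfactory lineage, 0 were called. Otx2 was measured at 109.2 ± 4.11 CPM in WT and at 104.8 ± 6.52 in homo. Emx1, the paralog of Emx2, was near 1.55 CPM. The largest log2 difference between homo and WT in the list was that of Uncx (-0.70, SE 0.36, edgeR adjusted p = 1), whose WT mean of 78.6 ± 43.5 CPM had the largest SD of the list.

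Of 15 factors of the olfactory neuron lineage, 0 were called, 12 of 15 were lower in homo than in WT and the median was -0.09. The median over all genes tested in this contrast was 0.00011. Insm1, a zinc-finger factor of basal progenitors, was measured at 151.5 ± 25.7 CPM in WT, 130.1 ± 27.6 in het and 115.7 ± 10.2 in homo (homo against WT -0.38, SE 0.13, unadjusted p = 0.0117, edgeR adjusted p = 1). Sox2 was measured at 93.4 ± 4.19, 81.3 ± 12.0 and 79.9 ± 5.75 CPM (-0.22, SE 0.09, unadjusted p = 0.0328, edgeR adjusted p = 1). Summed over 7 progenitor markers the level was 333.9 ± 6.93 CPM in WT (326.0 to 338.7) and 350.8 ± 5.10 in homo (344.2 to 356.5), so these groups did not overlap. The same held for 1 more of the 10 marker lists, the 6 neutrophil and marrow markers, at 19.2 to 29.2 CPM in WT and 14.6 to 17.9 in homo, and for 3.55% of single genes. Their part in the values of Insm1 and Sox2 was not tested.

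Chromatin regulators of receptor choice were represented by 17 genes in the table, of which 0 were called. The median difference was 0.0096 between homo and WT. Trim66 was measured at 606.2 ± 43.7 CPM in WT and 640.1 ± 117.4 in homo, and the demethylase gene Kdm1a at 117.2 ± 13.8 and 124.6 ± 13.1.

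Beyond genotype, Lhx2, Ldb1 and Emx2 deviated from their means with the same sign in 6 of 10 libraries and with mixed signs in the other 4 (WT replicate 1, het replicate 1 and homo replicates 1 and 3). All 3 were lowest in het replicate 2, at -0.31, -0.20 and -0.30 from their mean over the 10 libraries on the log2 scale, and low in homo replicate 2, at -0.18, -0.12 and -0.15. They were high in het replicate 3, at 0.16, 0.19 and 0.24. Bptf went the other way in part of these libraries, with its highest value in homo replicate 2 (0.27) and -0.15 in het replicate 3.

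Of 28 pairs among the 8 genes, the 3 pairs of Lhx2, Ldb1 and Emx2 had an adjusted p under 0.05 for Pearson's r over the 10 libraries, in a permutation test of log2 CPM with 100000 resamples. Here and for the cell type markers below, the permutation took the 10 libraries as independent. It took no account of genotype or of the likeness of WT and het libraries with the same replicate number. Lhx2 and Ldb1 gave r = 0.77 (p = 0.0034, adjusted p = 0.0463) and Spearman's rho = 0.78 (p = 0.0107, adjusted p = 0.150). Lhx2 and Emx2 gave r = 0.78 (p = 0.0025, adjusted p = 0.0463) and rho = 0.71 (p = 0.0271, adjusted p = 0.189). Ldb1 and Emx2 gave r = 0.82 (p = 0.0050, adjusted p = 0.0463) and rho = 0.73 (p = 0.02, adjusted p = 0.187). No rho passed the adjustment. Without the 2 libraries farthest from the median the r values were 0.65, 0.64 and 0.75, and as deviations from the genotype means they were 0.80, 0.77 and 0.90. Ebf3 and Ebf4, the next pair, gave r = 0.77 (p = 0.0135, adjusted p = 0.0946), and Bptf was negatively correlated with Ldb1 and with Emx2 (r = -0.58 for both, adjusted p = 0.231).

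Base composition moved with these libraries. Over 16546 genes, the deviation of het replicate 2 fell with the GC content of the gene (Spearman's rho = -0.61), as did that of WT replicate 2 (-0.39), and that of homo replicate 4 rose with it (0.40), while the deviation of homo replicate 2 rose with gene length (0.38). Lhx2 and Ldb1 are GC-rich at 58.5% and 57.9%, above the 90th percentile of 57.7%, Ebf4 has the most with 62.2%, Emx2 has 52.2%, and Bptf has the longest exon union of the 8 genes with 14081 bases. After a correction of each library for GC and length, chosen after seeing the data, the 3 pairs gave r = 0.54, 0.48 and 0.58, Ebf3 and Ebf4 gave 0.23, and the deviation of Bptf in homo replicate 2 was 0.04. Ebf4 did not follow the GC trend of het replicate 2, where it stood at 0.14 above its mean as counted and 0.37 after the correction. The correlations of Emx2 with Ebf1 and Ebf3 were larger after it, at 0.83 and 0.80 against 0.42 and 0.58 before. The order of the pairs therefore changed with the correction.

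**Figure D4:**
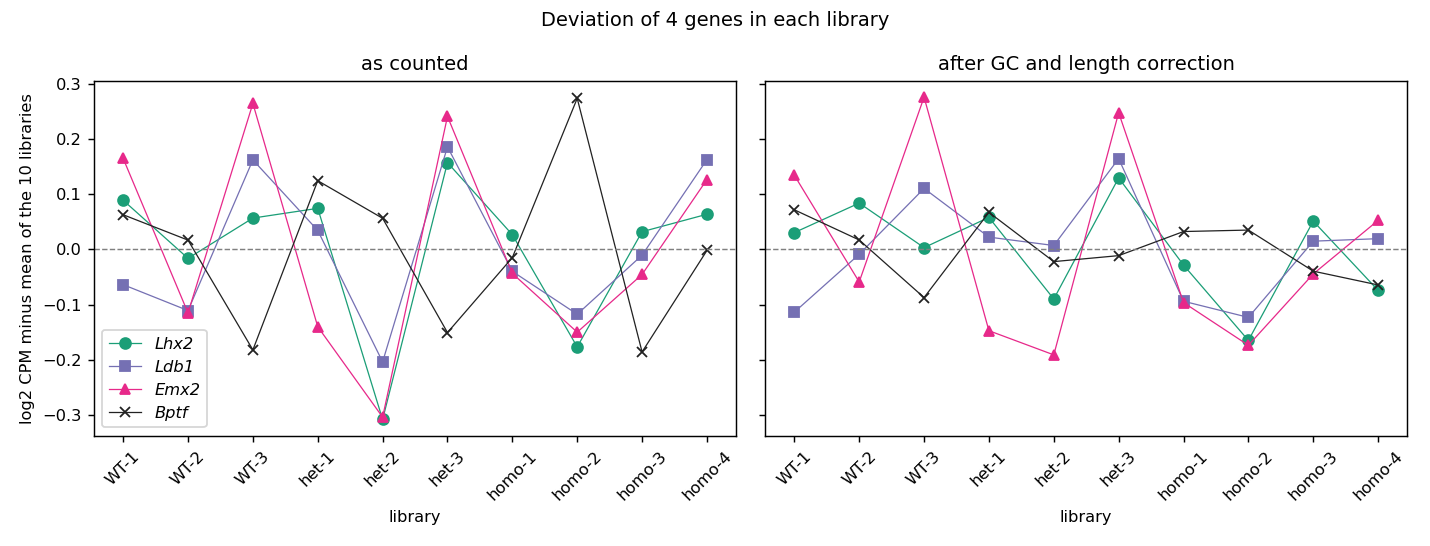
Log2 CPM minus the mean of the 10 libraries (vertical axis) for Lhx2, Ldb1, Emx2 and Bptf in each library, as counted (left) and after a correction for GC and length (right). The value of Ldb1 in het replicate 2 is -0.20 before and 0.0072 after the correction, that of Emx2 is -0.30 before and -0.19 after, and that of Bptf in homo replicate 2 is 0.27 before and 0.04 after.

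The levels were also set beside 10 lists of cell type markers, which gave 80 relations. Ldb1 followed the summed level of 7 immature neuron markers (Gap43, Gng8, Dpysl3, Stmn1, Tubb3, Nrn1l and Crmp1), which ran from 1919 CPM in het replicate 2 to 2604 CPM in WT replicate 3. Over the 10 libraries r was 0.97 (permutation p = 1e-05, the smallest that 100000 resamples can give, adjusted p = 0.00080) and rho 0.94 (p = 0.00019, adjusted p = 0.0076). Without the 2 farthest libraries r was 0.96, as deviations from genotype means 0.98, and after the GC and length correction 0.76. Emx2 gave r = 0.90 with the same markers (permutation p = 0.00027, adjusted p = 0.0072), rho = 0.78 (p = 0.0107, adjusted p = 0.143), 0.79 without the 2 farthest libraries and 0.80 after the correction.

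Emx2 ran against the summed level of 4 markers of ciliated respiratory cells, at r = -0.91 (permutation p = 0.00021, adjusted p = 0.0072) and rho = -0.95 (p = 0.00015, adjusted p = 0.0076). That r was -0.86 without the 2 farthest libraries and -0.82 after the correction. Ldb1 gave r = -0.83 with these markers (permutation p = 0.0038, adjusted p = 0.0752) and -0.38 after the correction, and Lhx2 gave -0.71 (permutation p = 0.0195, adjusted p = 0.156) and -0.16. Lhx2 gave r = 0.74 with the immature and 0.73 with the mature neuron markers (permutation p = 0.0135 and 0.0097, adjusted p = 0.120 and 0.111), and the corrected values were 0.32 and 0.71. Bptf gave -0.65 and -0.79 (permutation p = 0.0431 and 0.0061, adjusted p = 0.287 and 0.0815), with rho of -0.65 and -0.56, and after the correction these r values were -0.60 and -0.06. The part of cell make-up in these relations was not tested. The genotype means of the immature neuron markers were 2260 ± 305.9, 2211 ± 311.6 and 2197 ± 166.5 CPM in WT, het and homo, and all markers of the list were above 3 counts.

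**Figure D5:**
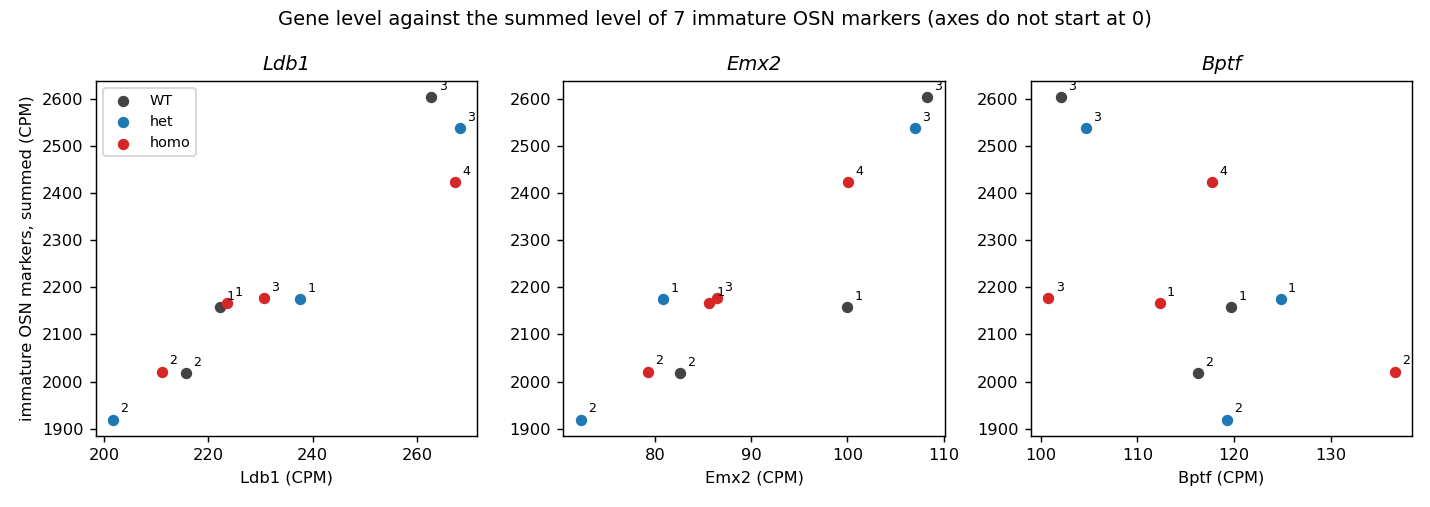
Summed level of 7 immature neuron markers (vertical axis, CPM) against the level of Ldb1, Emx2 and Bptf (horizontal axes, CPM) in the 10 libraries, colored by genotype and numbered by replicate. The 3 libraries with the highest marker level, at 2423 to 2604 CPM, are WT replicate 3, het replicate 3 and homo replicate 4, which also have the 3 highest values of Ldb1 and of Emx2. For Emx2, homo replicate 4 (100.1 CPM) is only just above WT replicate 1 (99.99 CPM). With TMM-scaled library sizes it is below (97.69 against 100.3).

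The libraries differ in trends with GC content and length that many genes share. The genes whose log2 CPM over the 10 libraries was most like that of a member are therefore given as a description. For Lhx2 they were Ubqln2 (r = 0.96) and Ctbp1 (0.95), for Ldb1 Rhno1 (0.97) and Tssc1 (0.97), and for Emx2 Phyhip (0.98) and Pck2 (0.98). For Ebf1 they were Lpcat2b (0.91, at a mean of only 0.4 CPM) and Klhl12 (0.88), and for Ebf2 Cipc (0.98) and Prune2 (0.93). For Ebf3 they were Cbx7 (0.94) and Pabpn1 (0.93), and for Ebf4 B3gnt4 (0.94) and 4930427A07Rik (0.94). For Bptf they were Ncor1 (0.98) and Atp2a2 (0.97). No member was among the 2 most alike genes of another. Tssc1 and 4930427A07Rik had no GC content to use and were left uncorrected. After the GC and length correction the other r values ranged from 0.62 (Ebf1 and Lpcat2b) to 0.97 (Ebf1 and Klhl12). Those of Emx2 with Phyhip and Pck2 stayed at 0.97 and 0.94. Emx2 had 167 genes with an r over 0.9, Ldb1 79, Lhx2 76, Bptf 60, Ebf4 20, Ebf3 9, Ebf2 7 and Ebf1 1, of 17196 others tested.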

How the data were processed

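Whole MOE RNA was sequenced from a directional library kit with poly(A) selection. Per the labels and methods, the authors trimmed reads (Trimmomatic 0.36), mapped them to mm10 (HISAT2 2.1.0) and counted them per gene (featureCounts, Subread 1.6.2). The strand setting of the counting is not given in the sources used here, so reads of a gene and an opposite-strand neighbour may not be separated. The deposited raw counts were used for all results, and the deposited normalized values (signal scaled by DESeq2 1.20.0 size factors) for an alternative. Genes with enough counts (filterByExpr, minimum 10) were fitted by genotype over all 10 libraries with edgeR 4.0.16 (TMM, robust quasi-likelihood F test, two-sided, R 4.3.3), adjusted over 17197 genes. DESeq2 1.42.0 and limma 3.58.1 were alternatives. The fits were tested on simulated data. Levels per length used GENCODE M21 exons. The members, lists and rules for named genes (8 members, the 2 genes most alike each, the largest differences of each list) were chosen with earlier results of these data known. Deviations of same-numbered libraries were positively correlated between WT and het (0.33, 0.29 and 0.23). They were not consistently so between homo and WT (-0.10, -0.01 and -0.07) or homo and het (-0.15, 0.16 and 0.07). Libraries with different numbers were not compared, and the labels name no litter for a number, so a true pairing was not tested. Replicates differed beyond counting noise (a chi-square of 14.5 to 49.3 for each degree of freedom).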

Additional observations from a re-analysis of the deposited data

Results flagged for a closer look

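Among 23 values checked for a library far from the rest of its group, 1 stood out: the summed level of 6 neutrophil and marrow markers was 17.93 CPM in homo replicate 4, and the gap to the next homo library was 0.883 of the range of the group. Chance alone marks about 1 in 20 such groups. No level of the 8 genes was marked in homo, the one genotype with enough libraries for the check.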

How the results depend on the processing

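None of the 8 genes was called in any contrast under any of the 11 alternatives or the 10 fits that left out a library. In the alternatives with a replicate block, homo replicate 4 was alone in its block and did not bear on the homo contrasts. Of 504 log2 differences recomputed, 453 kept their sign and 51 were reversed, none of them past the test. Calls over all genes moved by over 1.5 times with the replicate block: 19 between homo and WT, and 24 between homo and het, and with the block and the GC and length correction together 19, 22 and, between het and WT, 1. The block changed no call among the 8 genes. For Ldb1, homo against WT reversed to -0.0002 (DESeq2), -0.0003 (DESeq2 size factors), -0.0019 (total counts only), -0.0024 (mean CPM of at least 1), -0.0429 (GC and length correction), -0.051 (replicate block) and -0.0636 (block and correction). For Lhx2, homo against het reversed to -0.0011 (DESeq2 and its size factors), -0.0037 (mean CPM of at least 1), -0.004 (total counts only), -0.0168 (block), -0.0875 (correction) and -0.08 (both). For Emx2, homo against het reversed to -0.0134 (block), -0.0468 (correction) and -0.0766 (both). For Bptf, homo against het reversed to -0.0203 (correction) and -0.0018 (both), and homo against WT to -0.0108 (correction). For Ebf1, het against WT reversed to -0.0231 (correction) and -0.0303 (both). The cause was not tested. Leaving out 1 library gave homo against WT ranges of -0.0569 to 0.0885 (Ldb1), -0.1124 to 0.0833 (Ebf4) and -0.0407 to 0.1221 (Bptf), het against WT ranges of -0.146 to 0.071 (Lhx2), -0.078 to 0.1102 (Ldb1), -0.035 to 0.0433 (Ebf3) and -0.0286 to 0.123 (Bptf), and homo against het ranges of -0.1233 to 0.0936 (Lhx2), -0.1058 to 0.0823 (Ldb1), -0.0836 to 0.1956 (Emx2) and -0.0859 to 0.0774 (Bptf). The smallest unadjusted p of any fit was that of Emx2 between homo and WT with block and correction (0.0065, edgeR adjusted p = 0.584, log2 difference -0.22), and the smallest adjusted p of the 8 genes in that contrast ranged from 0.584 to 1 over the fits. With block and correction Ebf3 also had an unadjusted p under 0.05 in that contrast, and Ldb1, Ebf3 and Ebf4 had one between homo and het (smallest 0.0232, edgeR adjusted p = 0.929). The planned search for motif letters in the TAAR enhancer intervals was not run. Replicate error, not depth, limits these comparisons.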
